A study of Rattus norvegicus with 16 samples.

Results

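The proteasome is the protease complex that degrades ubiquitin-tagged proteins, and its genes carry the symbols Psma to Psmg. Those genes are described here in rat neural stem and progenitor cells after 6 d or 12 h with PDGF-AA, a dimer of platelet-derived growth factor, or without any growth factor. Genes were taken by symbol alone: every spot whose chip annotation listed exactly 1 symbol of the form Psma to Psmg with a number was kept, and spots of 1 symbol were averaged on each array. That gave 35 genes on 60 of the 15151 spots, among 6241 named genes tested, and 2 further spots that listed several symbols were left out. All 35 genes were measured on all 16 arrays and all were tested. By symbol they comprise 13 genes of the core particle, 19 genes of the regulatory particles and activators, and 3 assembly chaperones (Psmg). The 19 include Psmd5, Psmd9 and Psmd10, which are assembly chaperones too.

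The core particle is a barrel of stacked rings in which the alpha subunits (Psma) form the gated ends and the beta subunits (Psmb) carry the proteolytic sites. A regulatory particle on the ends recognises ubiquitin chains through its non-ATPase subunits (Psmd) and unfolds and threads the substrate with a ring of ATPases (Psmc). Activators (Psme) bind the same ends as an alternative, and dedicated chaperones (Psmg and some Psmd genes) assemble the particles. In dividing progenitors the complex clears cyclins and other cell cycle regulators, and in neurons and glia it turns over damaged and regulatory proteins.

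The cells were taken from Sprague-Dawley rat embryos, from the neocortex at embryonic day 14.5, and cultured in a single layer with FGF-2 at 10 ng/ml, the mitogen that keeps them as progenitors. They were then kept for 6 d with PDGF-AA at 10 ng/ml, 6 d without factor, 12 h with PDGF-AA, or 12 h without factor. Each group had 4 arrays, and each array compared its RNA with that of FGF-2 cultures, the common reference, with the dyes swapped on 2 of the 4. The labels do not say whether FGF-2 was left out when PDGF-AA was added. They give at least 2 RNA preparations but not which arrays share one, so p-values reflect how far hybridisations differed, in part perhaps for technical reasons. Array numbers only name an array.

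All values are log2 ratios of the group over FGF-2, with errors from the fit across all 12559 genes and unnamed spots (limma), and a gene passed the test at a Benjamini-Hochberg adjusted p under 0.05. The base of the deposited logarithm is taken as 2, and the direction is likely sample over reference, because replication genes lie below 0 once the mitogen is removed. Neither is stated, and every fold and sign rests on them. The 4 groups share the FGF-2 RNA, whose own spread does not enter the tests against it. A ratio gives no level, so genes cannot be ranked by abundance, and in bulk RNA fewer cells with a transcript and less transcript per cell cannot be told apart. The chip carries mouse cDNA read with rat RNA. In the rat gene table, 30 pseudogenes are named after 12 of the 35 genes, and such spots may not separate a gene from its copies. Spot signal over background was not used here. For some genes the arrays of a group are said to lie apart from those of another group. The share of the 35 genes, or of all units, that lay apart was not counted. Such statements describe the arrays and were not tested.

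Promoters of 4 genes that were lower at 6 d without factor are given here, chosen by role: a catalytic subunit (Psmb6), a regulatory ATPase (Psmc1), an activator (Psme1) and an assembly chaperone (Psmg3). Each line gives the 250 bases before the gene start from RefSeq, build GRCr8, on the plus strand. The regions are chr10:55737638-55737887 for Psmb6, chr6:125122247-125122496 for Psmc1, chr15:33038721-33038970 for Psme1 and chr12:19923038-19923287 for Psmg3. Capitals mark matches on either strand to 3 motifs, the antioxidant response element TGACNNNGC, the CCAAT box CCAAT and the GC box GGGCGG.
Psmb6: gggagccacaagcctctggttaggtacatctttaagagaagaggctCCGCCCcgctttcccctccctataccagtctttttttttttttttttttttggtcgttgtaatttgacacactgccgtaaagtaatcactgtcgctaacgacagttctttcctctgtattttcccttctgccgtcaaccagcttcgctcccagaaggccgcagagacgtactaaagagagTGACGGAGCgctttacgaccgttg
Psmc1: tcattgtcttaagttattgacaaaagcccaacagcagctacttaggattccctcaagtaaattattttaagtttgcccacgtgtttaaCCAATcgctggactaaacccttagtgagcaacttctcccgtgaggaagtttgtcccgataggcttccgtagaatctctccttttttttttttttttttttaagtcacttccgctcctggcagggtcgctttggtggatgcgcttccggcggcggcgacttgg
Psme1: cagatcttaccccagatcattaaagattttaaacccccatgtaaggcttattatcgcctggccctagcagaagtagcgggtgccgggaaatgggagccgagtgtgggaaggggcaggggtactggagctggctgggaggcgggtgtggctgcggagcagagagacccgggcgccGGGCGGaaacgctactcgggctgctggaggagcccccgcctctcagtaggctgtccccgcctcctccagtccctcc
Psmg3: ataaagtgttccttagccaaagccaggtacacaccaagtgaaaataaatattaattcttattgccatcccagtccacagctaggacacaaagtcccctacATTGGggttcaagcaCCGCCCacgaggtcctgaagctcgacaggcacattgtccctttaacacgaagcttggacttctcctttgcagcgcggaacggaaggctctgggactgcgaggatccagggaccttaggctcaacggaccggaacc

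Promoters of 31 of the 35 genes were in the table, and motifs were counted over 300 bases, 250 before and 50 after the gene start. The GC box was in 71.0% of the 31 promoters, against 33.1% of all 33469 rat promoters. The CCAAT box was in 48.4% against 37.5%, and the antioxidant response element in 25.8% against 12.1%. Of the 9 genes lower at 6 d without factor, 8 had a GC box, 4 a CCAAT box and 1, Psmb6, the antioxidant response element. Among the other 22 promoters, 14 had a GC box, 11 a CCAAT box and 7 the antioxidant response element. The 3 motifs do not overlap in the 4 sequences shown. A match is a run of letters, not a bound site, and no test was made of these shares.

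Proteasome genes were lower than in FGF-2 most often at 6 d without factor, where 9 of 35 passed the test, all of them lower. They were Psma1, Psmb6, Psmb7, Psmc1, Psmc5, Psmd8, Psme1, Psmg1 and Psmg3. By symbol they were 1 of 6 alpha subunits, 2 of 7 beta subunits and 2 of 4 ATPases. The others were 1 of 13 non-ATPase (Psmd) genes, 1 of 2 activators and 2 of 3 Psmg chaperones. Without the chaperones Psmd5, Psmd9 and Psmd10, it was 1 of 10 non-ATPase genes. The 9 are 25.7% of the genes, where 13.7% of all units tested passed in either direction and 6.73% passed as lower. Among all other named genes 18.1% passed in either direction, and 490 of 6206 passed as lower. Over the 35 genes the median log2 ratio was -0.15, and 28 lay below 0. Over all units it was 0.0043, with 49.1% below 0. Each array was centred on its median, which keeps the value over all units near 0. The sizes were small: the 9 ratios ran from -0.46 to -0.28, which is 0.727 to 0.824 of the FGF-2 value. A further 7 genes had an unadjusted p under 0.05 without passing, 6 of them lower and Psmd10 higher.

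**Figure D1:**
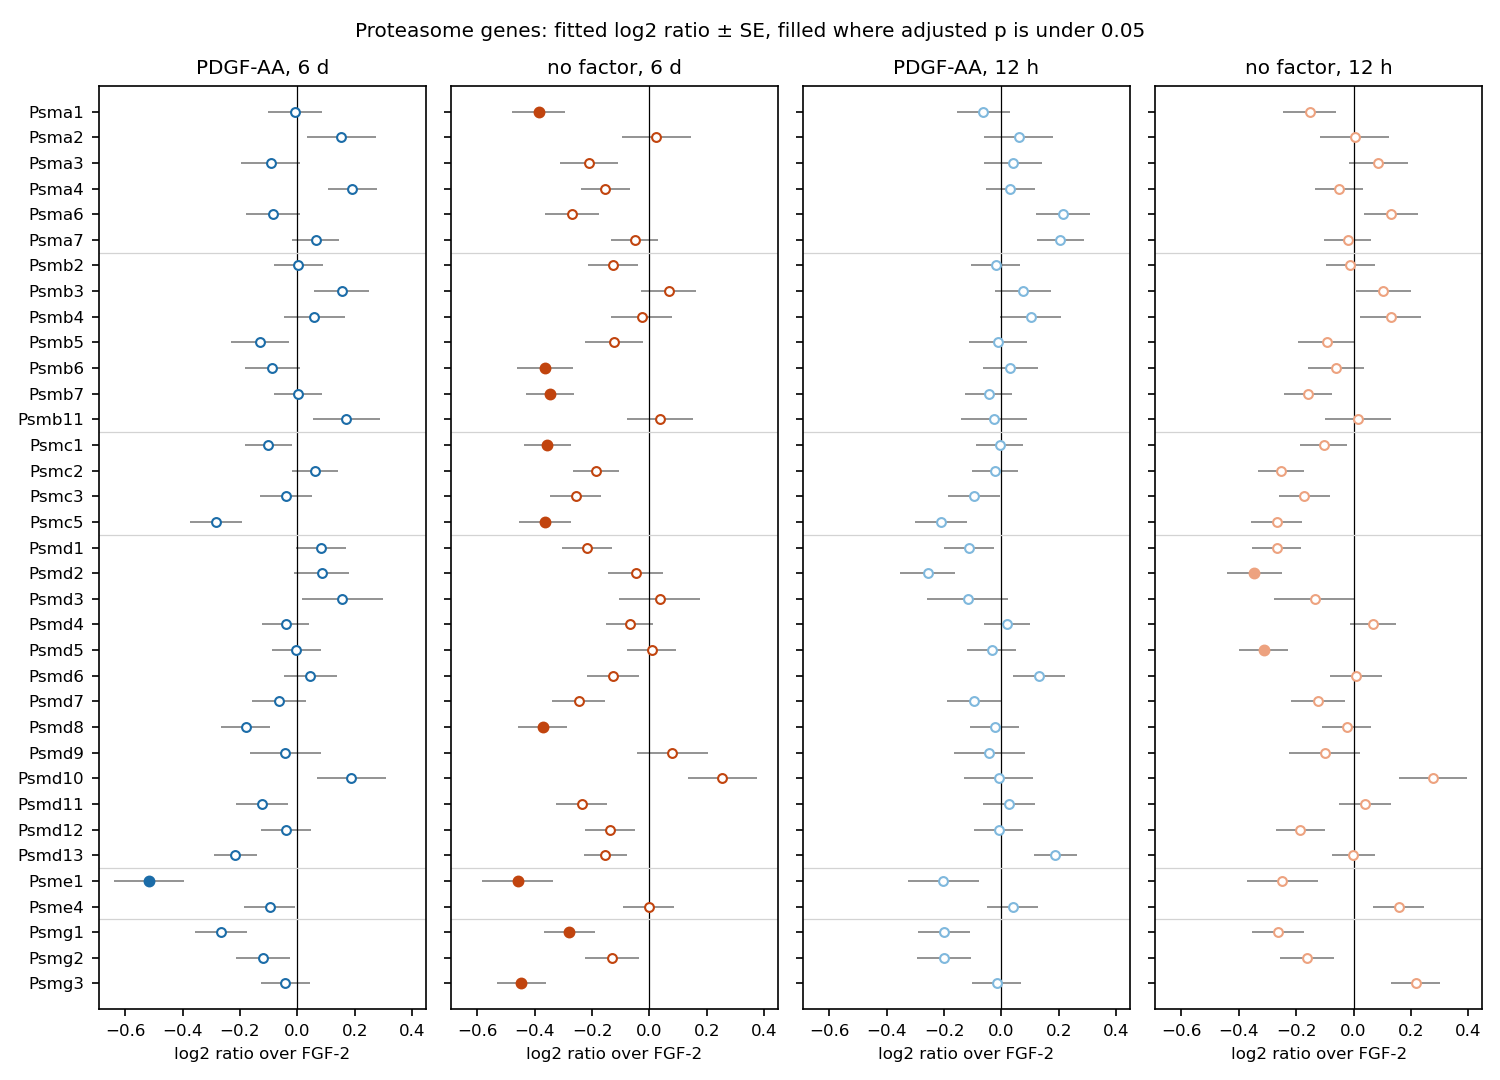
Fitted log2 ratio over FGF-2 (x axis) with its standard error for each of the 35 proteasome genes (rows, by role: alpha, beta, ATPase, non-ATPase, activator, chaperone) in 1 panel per group, filled where the adjusted p is under 0.05. The 9 filled points at 6 d without factor all lie left of 0, against 1 at 6 d with PDGF-AA, 0 at 12 h with PDGF-AA and 2 at 12 h without factor.

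Among core genes, Psma1, an alpha ring subunit, read -0.15, -0.41, -0.78 and -0.19 on arrays 1 to 4 of 6 d without factor. All 4 arrays were below 0, the 2 with the sample in Cy3 (arrays 2 and 3) lower than the 2 in Cy5. Its mean was -0.39 ± 0.093 (SE, adjusted p = 0.00926). Psmb6 and Psmb7 encode the subunits with the caspase-like and trypsin-like sites. Psmb6 read -0.18, -0.42, -0.70 and -0.16, again lower on the Cy3 arrays, with a mean of -0.36 ± 0.096 (adjusted p = 0.0167). Psmb7 read -0.40, -0.39, -0.23 and -0.36, with a mean of -0.35 ± 0.083 (adjusted p = 0.00894). All 4 arrays of Psmb7 lay below 0, and only array 3 stood apart from a narrow range. The third proteolytic subunit, Psmb5, which has the chymotrypsin-like site, did not pass: it read -0.32, -0.17, 0.23 and -0.22, and its ratio was -0.12 ± 0.10.

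In the ATPase ring, Psmc1 read -0.19, -0.57, -0.53 and -0.13 at 6 d without factor, again lower on the Cy3 arrays. Its mean was -0.36 ± 0.082 (adjusted p = 0.00657). Psmc5 read -0.47, -0.34, -0.44 and -0.20, with a mean of -0.36 ± 0.090 (adjusted p = 0.0107). Both were below 0 on all 4 arrays, and the 2 spots of Psmc1 and the 3 spots of Psmc5 were each below 0 in that group. The other measured ATPases, Psmc2 and Psmc3, had ratios of -0.19 and -0.26 that did not pass. Psmd8 is a subunit of the lid that sits over the ATPase ring. It read -0.61, -0.22, -0.23 and -0.44, lower on the Cy5 arrays, with a mean of -0.37 ± 0.085 (adjusted p = 0.00661). Its 4 arrays lay below all 8 arrays of the 12 h groups, and its 2 spots read -0.35 and -0.40.

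Psme1, the alpha subunit of an activator that opens the core without ATP, read -0.72, -0.57, -0.49 and -0.056 at 6 d without factor, with a mean of -0.46 ± 0.12 (adjusted p = 0.0182). Array 4 was close to 0 and the other 3 were well below it. Psme4, which encodes a large single-chain activator, had a ratio of -0.0022 ± 0.088. Of the chaperones that build the alpha ring, Psmg3 read -0.52, -0.33, -0.55 and -0.39, with a mean of -0.45 ± 0.085 (adjusted p = 0.00172). Its 4 arrays lay below all 12 arrays of the other 3 groups. Its promoter holds a CCAAT box and a GC box. Psmg1 read -0.21, -0.47, -0.43 and -0.0048, lower on the Cy3 arrays, with a mean of -0.28 ± 0.090 (adjusted p = 0.0497). Psmg2, the partner of Psmg1, had -0.13 ± 0.094 and did not pass.

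Psmg3 and Psmc1 passed at 6 d without factor whichever array was left out. The count over all genes was 4 without array 1 of that group, 4 without array 3, 6 without array 2 and 11 without array 4. Without array 1, Psmb6 (adjusted p = 0.0555), Psmc5 (0.0831), Psmd8 (0.0687), Psme1 (0.112) and Psmg1 (0.138) no longer passed. Without array 3, Psma1 (0.0917), Psmb6 (0.137), Psmc5 (0.0705), Psme1 (0.119) and Psmg1 (0.228) did not. Without array 2, Psmb7 (0.0719), Psme1 (0.122) and Psmg1 (0.229) did not. Psmg1 also failed without any 1 of 11 arrays of the other groups, at adjusted p of 0.0515 to 0.0652. All of these ratios stayed below 0. The sample titles carry a number of unstated meaning, which is the same on 12 arrays of all 4 groups and differs on array 1 of 6 d without factor and on arrays 1, 2 and 3 of 6 d with PDGF-AA. Array 1 of 6 d without factor has a number that no other array has. A term for the number thus takes that array out of the group mean. Fitting the term and keeping only the 12 arrays that share a number are therefore nearly 1 analysis for this group. The same 5 genes passed in both (Psma1, Psmb7, Psmc1, Psmc5 and Psmg3). Psmb6 (adjusted p = 0.0702), Psmd8 (0.0840), Psme1 (0.134) and Psmg1 (0.163) did not pass with the term, so no non-ATPase or activator gene passed there.

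**Figure D2:**
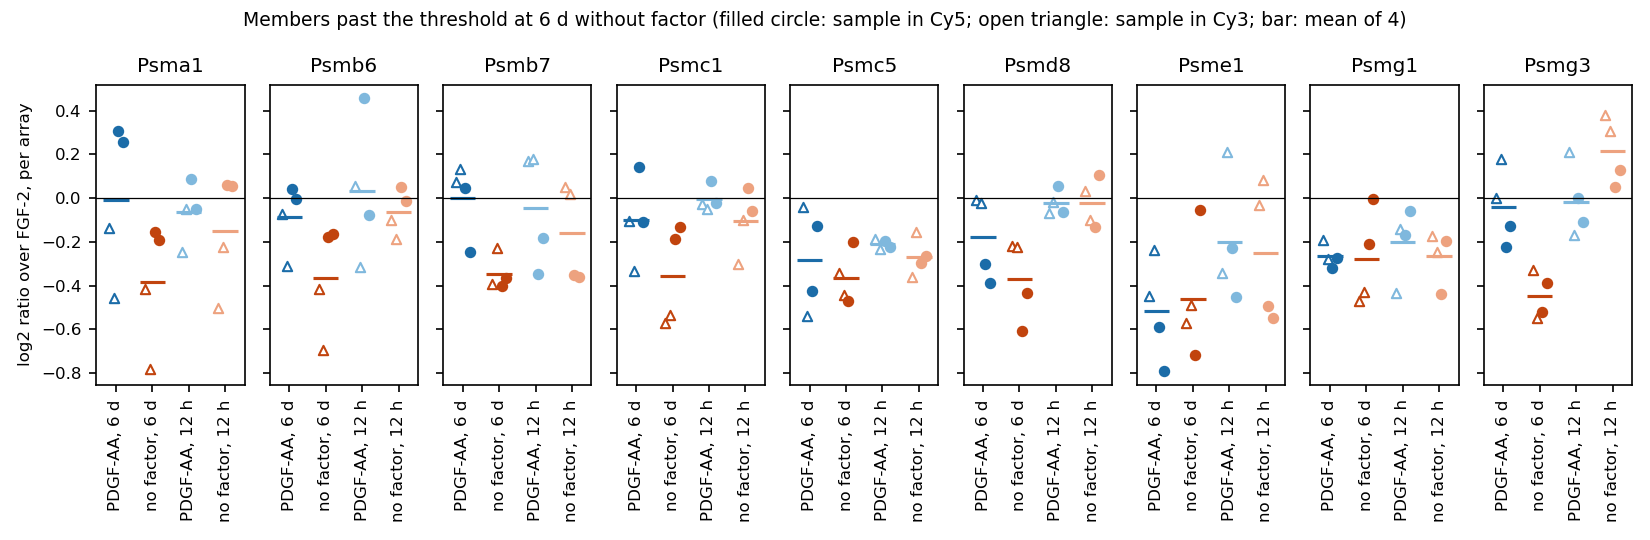
Log2 ratio over FGF-2 (y axis) on each array for the 9 genes that passed at 6 d without factor, by group, with filled circles for the sample in Cy5, open triangles for Cy3 and bars for the mean of 4 arrays. For Psmg3 the 4 arrays of 6 d without factor, -0.55 to -0.33, lie below every other array. For Psma1, Psmb6, Psmc1 and Psmg1 the Cy3 arrays of that group lie below its Cy5 arrays, and for Psmd8 above them.

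With PDGF-AA for 6 d, 1 of 35 genes passed, Psme1, where 3.22% of all units passed in either direction and 1.32% as lower. Psme1 read -0.59, -0.79, -0.45 and -0.24 on the 4 arrays, all below 0, with a mean of -0.52 ± 0.12 (adjusted p = 0.0278), or 0.699 of the FGF-2 value. It no longer passed without array 1, 2, 3 or 4 (adjusted p of 0.0597, 0.185, 0.0773 and 0.0609). Without array 3 Psmc5 passed in place of Psme1. Arrays 1, 2 and 3 of this group carry title numbers found in no other group. With the title number as a term, the group value therefore rests on array 4 alone. The Psme1 ratio was then -0.34, and no test is read from it. The median over the 35 genes was -0.040, with 21 below 0, as were 49.2% of all units. A further 4 genes had an unadjusted p under 0.05. Psmc5 (-0.28 ± 0.090) and Psmg1 (-0.27 ± 0.090) were among them, at adjusted p of 0.106 and 0.135. The others were Psmd13 (-0.22 ± 0.075, adjusted p = 0.147) and Psma4, which was higher (0.19 ± 0.085, adjusted p = 0.285). The genes that passed without factor had ratios nearer 0 here in most cases: -0.0086 for Psma1, -0.088 for Psmb6, 0.0019 for Psmb7, -0.10 for Psmc1, -0.18 for Psmd8 and -0.043 for Psmg3. They were picked by their low ratios without factor, so values nearer 0 in another group are in part built in by that choice.

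The difference between PDGF-AA and no factor at 6 d was tested directly. PDGF-AA minus no factor at 6 d gave 0 of 35 genes past the threshold and 7 at an unadjusted p under 0.05, where 0.00796% of all units passed. The differences were above 0 for 28 of the 35 genes, with a median of 0.12. Over all units the median was 0.00068, with 6298 of 12559 above 0. Each array was centred on its median, which keeps the value over all units near 0. For Psmg3 the 4 arrays read -0.22, -0.13, -0.0012 and 0.18 with PDGF-AA, and none overlapped the 4 without factor. How many of the 35 genes, or of all units, separated likewise was not counted, so nothing is concluded from that separation. For Psmg3 the difference was 0.40 ± 0.12 (95% interval 0.15 to 0.66), at an adjusted p of 0.418. It was 0.38 ± 0.13 for Psma1, 0.35 ± 0.12 for Psmb7 and 0.25 ± 0.12 for Psmc1, at adjusted p of 0.445 to 0.559, and the arrays of both groups overlapped for each. For Psme1 it was -0.057 ± 0.17 (95% interval -0.43 to 0.31) and for Psmg1 0.012 ± 0.13 (-0.26 to 0.28). All genes given with values here had passed as lower without factor, a choice that tends to widen the differences.

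At 12 h without factor, 2 of 35 genes passed, both lower, where 11.7% of all units passed in either direction and 6.48% as lower. Among all other named genes 16.6% passed in either direction, and 538 of 6206 passed as lower. Psmd2, a scaffold that docks ubiquitin shuttles, read -0.16, -0.51, -0.48 and -0.23, with a mean of -0.35 ± 0.095 (adjusted p = 0.0249). All 4 arrays were below 0, as were the group means of its 4 spots, which ran from -0.46 to -0.14. Psmd5, a chaperone of base assembly, read -0.37, -0.32, -0.28 and -0.28, with a mean of -0.31 ± 0.086 (adjusted p = 0.0241). Those 4 arrays lay below all 12 arrays of the other groups. The same genes had ratios of -0.048 (Psmd2) and 0.0078 (Psmd5) at 6 d without factor.

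Neither call held without every array of the group. Without array 1, 2 or 3 of 12 h without factor no proteasome gene passed (Psmd2 at adjusted p of 0.0669, 0.117 and 0.104, Psmd5 at 0.0807, 0.138 and 0.119). Without array 4 Psmd5 alone did, and Psmd2 had 0.0795. Without array 4 of 6 d with PDGF-AA the count was 4, the added genes being Psmc5 and Psmd1. The median of the 35 genes was -0.062, and 23 lay below 0, as did 50.2% of all units. The genes at an unadjusted p under 0.05 numbered 9. They included Psmg3, which at this time lay above 0, at 0.38, 0.053, 0.13 and 0.30 on the 4 arrays and 0.22 ± 0.085 in the fit (adjusted p = 0.124).

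With PDGF-AA for 12 h, 0 of 35 genes passed, where 3.01% of all units did (2.35% as lower), and 7 had an unadjusted p under 0.05. Their ratios ran from -0.26 for Psmd2 to 0.21 for Psma6, an alpha subunit. The median was -0.016, with 22 of 35 below 0, as were 50.3% of all units. PDGF-AA minus no factor at 12 h gave 0 genes past the threshold and 1 at an unadjusted p under 0.05, Psmd5 (0.28 ± 0.12, adjusted p = 0.896), where 0.0159% of all units passed. The 4 PDGF-AA arrays of Psmd5, from -0.20 to 0.16, all lay above the 4 without factor, a separation not counted over the other genes.

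Between 6 d and 12 h without factor, 1 of 35 genes passed, Psmg3, where 1.87% of all units passed in either direction and 0.454% as lower. Psmg3 was lower at 6 d by -0.66 ± 0.12 (95% interval -0.92 to -0.41, adjusted p = 0.00831), or 0.632 of its 12 h value. The 4 arrays at 6 d were all below 0 and the 4 at 12 h all above it, and the call held without any 1 array. The differences were below 0 for 25 of 35 genes, with a median of -0.10. Over all units the median was 0.017, with 46.6% below 0. A further 7 genes had an unadjusted p under 0.05 without passing. Among them were Psmd8 (-0.35 ± 0.12), Psma6 (-0.40 ± 0.13), Psmb6 (-0.30 ± 0.14), Psmd2 (0.30 ± 0.13) and Psmd5 (0.32 ± 0.12), at adjusted p of 0.172 to 0.403.

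With PDGF-AA, 6 d minus 12 h gave 0 of 35 genes past the threshold and 3 at an unadjusted p under 0.05, where 1.07% of all units passed. Psmd13, a lid subunit named after its values were seen, read -0.27, -0.20, -0.13 and -0.26 at 6 d, against 0.34, 0.24, 0.093 and 0.074 at 12 h. The arrays did not overlap, a separation not counted over the other genes, and the difference was -0.40 ± 0.11 (adjusted p = 0.0941). Its 2 spots had 12 h means of 0.039 and 0.34. The interaction of factor and time, which asks whether the PDGF-AA minus no factor difference itself changed between 6 d and 12 h, gave 0 of 35 genes and 0 of 12559 units (0%). At an unadjusted p under 0.05 there were 497 units and 1 gene, Psmg3 (0.64 ± 0.17, adjusted p = 0.995).

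Core and regulatory genes were set side by side in each group. At 6 d with PDGF-AA the median was 0.0041 for the core and -0.041 for the regulatory genes. At 6 d without factor it was -0.13 and -0.15, with 3 of 13 core and 4 of 19 regulatory genes lower. At 12 h with PDGF-AA it was 0.031 and -0.023. At 12 h without factor it was -0.011 and -0.12, with 0 of 13 core and 2 of 19 regulatory genes lower. Of those 2, Psmd5 is an assembly chaperone. The medians and counts are descriptions of both lists and were not tested.

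On single arrays the core median lay above the regulatory median in all 4 arrays of 6 d with PDGF-AA (by 0.0025 to 0.20), of 12 h with PDGF-AA (by 0.057 to 0.097) and of 12 h without factor (by 0.031 to 0.23). At 6 d without factor the order followed the dye: core minus regulatory was 0.17 and 0.060 on the Cy5 arrays, against -0.15 and -0.13 on the Cy3 arrays. Within the core, the alpha and beta medians at 6 d without factor were -0.18 and -0.12. Within the regulatory genes, the ATPase median was -0.31 with 4 of 4 below 0, and the non-ATPase median -0.13 with 9 of 13 below 0. Without the assembly chaperones Psmd5, Psmd9 and Psmd10, the non-ATPase median was -0.15 with 9 of 10 below 0.

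**Figure D3:**
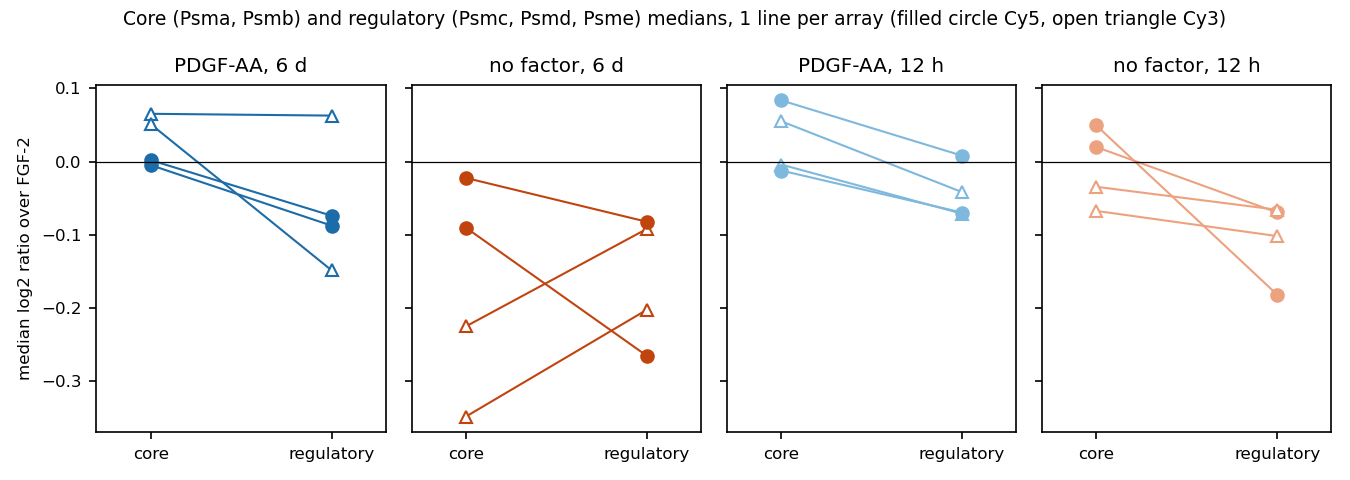
Median log2 ratio over FGF-2 (y axis) of the 13 core and the 19 regulatory genes, joined by 1 line per array, in 1 panel per group, with filled circles for the sample in Cy5 and open triangles for Cy3. Lines fall from core to regulatory on all arrays except the 2 Cy3 arrays of 6 d without factor.

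The dye effect, Cy5 minus Cy3, passed the threshold for 16 of 35 genes (45.7%), against 39.1% of all units. It ran from -0.71 for Psmd3 to 0.47 for Psma3, and was 0.40 for Psma1, 0.27 for Psmb6, 0.22 for Psmc1 and -0.28 for Psmb7. For Psmc5, Psmd8, Psme1, Psmg1 and Psmg3 it did not pass. Each group has both orientations equally, so the effect cancels in a group mean, and without a dye term in the fit Psmc1, Psmc5, Psmd8 and Psmg3 still passed at 6 d without factor, 4 of the 9.

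Some genes kept 1 sign over nearly the whole study. Psmc5 and Psmg1 were below 0 on 16 of 16 arrays, from -0.54 to -0.042 and from -0.47 to -0.0048. Psme1, Psmd1 and Psmg2 were below 0 on 14 of 16. All arrays share the FGF-2 reference, so these counts are not independent comparisons. The genes were picked for these runs of 1 sign, and how many of all units had such runs was not counted. At the other end, Psmd10, the assembly chaperone also known as gankyrin, was above 0 on 12 of 16 arrays, with ratios of 0.19 at 6 d with PDGF-AA, 0.25 at 6 d without factor, -0.010 at 12 h with PDGF-AA and 0.28 at 12 h without factor, none past the threshold. Psmd9, another base chaperone, lay between -0.10 and 0.079 in the 4 groups. Psmb11, the thymus-specific catalytic subunit in mouse, had ratios of -0.026 to 0.17, and no level can be read for it. Of the 18 genes with several spots, the spots differed in sign for 5 at 6 d with PDGF-AA, 5 at 6 d without factor, 8 at 12 h with PDGF-AA and 3 at 12 h without factor. Of the 9 genes that passed at 6 d without factor, 3 have several spots (Psmc1, Psmc5 and Psmd8), which had the same sign there, and the other 6 have 1 spot each.

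Other genes of the ubiquitin and proteasome pathway were read from 6 lists. Of all 12559 units, 6.73% passed as lower at 6 d without factor and 878 passed as higher. Of 11 proteasome-associated genes, 7 were measured, and 2 passed, both lower at 6 d without factor. Sem1, a small lid subunit outside the Psm nomenclature, had -0.52 ± 0.095 (adjusted p = 0.00124), and Pomp, which helps the core mature, had -0.25 ± 0.076 (adjusted p = 0.0414). At 6 d with PDGF-AA they had -0.29 and -0.18 and did not pass. The deubiquitinase genes Usp14 and Uchl5 had 0.052 and -0.12 at 6 d without factor.

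Among shuttles that bring ubiquitinated cargo, 10 of 15 were measured. Sqstm1, the p62 receptor that links ubiquitin to autophagy, was higher than in FGF-2 in all groups: 0.61 ± 0.14 at 6 d with PDGF-AA, 1.17 at 6 d without factor, 0.56 at 12 h with PDGF-AA and 0.88 at 12 h without factor, at adjusted p of 5.54e-05 to 0.0444. At 12 h without factor the related receptor Nbr1 (0.56 ± 0.12, adjusted p = 0.00523) and the shuttle Ubqln2 (0.42 ± 0.093, adjusted p = 0.00665) were also higher. So 3 of 10 rose there, where 654 of all 12559 units passed as higher. None of the 10 passed as lower in any group, where 1.32% to 6.73% of all units did, so little can be read from that count.

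Of 13 ubiquitin-conjugating (E2) genes, 3 passed as lower and 1 as higher in each no-factor group. In either direction, 13.7% of all units passed at 6 d without factor and 11.7% at 12 h without factor. Ube2c, which serves the anaphase-promoting complex, had -1.17 ± 0.15 at 6 d without factor, -1.32 ± 0.15 at 12 h with PDGF-AA and -1.82 ± 0.15 at 12 h without factor, at adjusted p of 2.35e-06 to 0.00033. At 6 d with PDGF-AA it had -0.44 and did not pass. Ube2t, an E2 of DNA crosslink repair, had -0.54 ± 0.15 at 6 d without factor, -0.70 ± 0.15 at 12 h with PDGF-AA and -1.33 ± 0.15 at 12 h without factor, at adjusted p of 1.78e-05 to 0.0203. Ube2e2 was higher at 6 d with PDGF-AA (0.38 ± 0.099, adjusted p = 0.048) and at 6 d without factor (0.41 ± 0.099, adjusted p = 0.00902). Of 9 cullin-ligase genes, Cul4b was lower at 6 d without factor (-0.40 ± 0.12, adjusted p = 0.0349) and Cul7 higher at 12 h without factor (0.40 ± 0.12, adjusted p = 0.0478). Of 3 measured regulators of proteasome transcription, Mafg passed as higher at 6 d without factor (0.43 ± 0.099, adjusted p = 0.00733). Nfe2l1, which drives proteasome genes when the protease is inhibited, had 0.077 and Nfe2l2 -0.064 in that group. The 1 measured gene of ubiquitin and its activating enzymes did not pass in any group.

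Other large complexes gave a scale for these shifts. Of 25 cytosolic ribosomal protein genes, 16 were lower at 6 d without factor, with a median of -0.32, as were 2 of 7 chaperonin genes, with a median of -0.21. All 5 measured genes of the MCM helicase, which unwinds DNA at replication, were lower in that group, with a median of -1.06, although their direction is not independent of the reading of the ratios. The proteasome count of 9 of 35 with a median of -0.15 stands beside these as a description. At 12 h without factor 3 of 25 ribosomal protein, 3 of 7 chaperonin and 5 of 5 MCM genes were lower. Of all units, 6.73% passed as lower at 6 d without factor and 6.48% at 12 h without factor. At 6 d with PDGF-AA the medians were -0.17 for ribosomal protein, -0.069 for chaperonin and -0.34 for MCM genes, against -0.040 for proteasome genes.

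**Figure D4:**
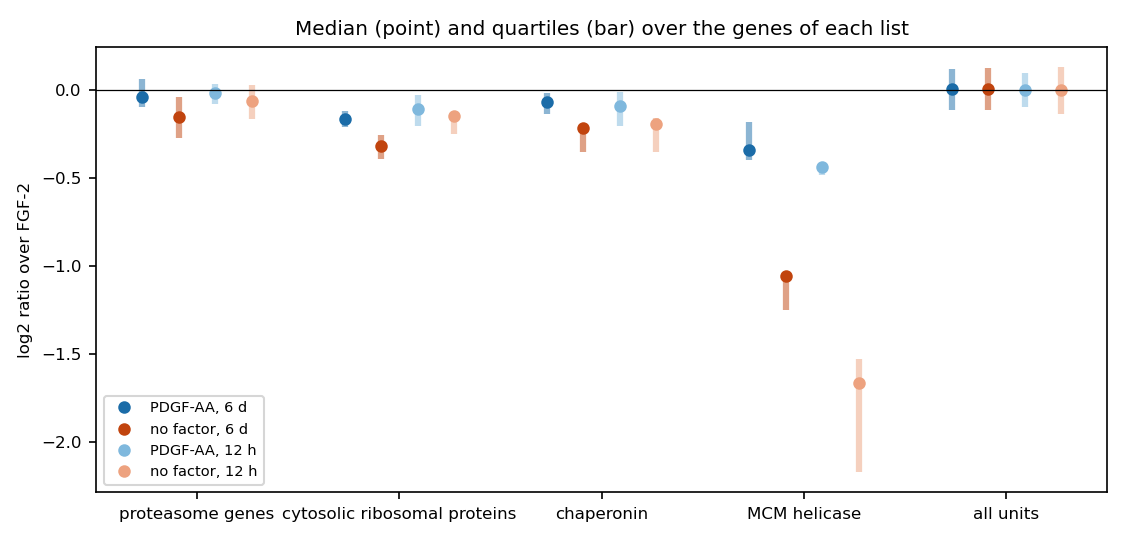
Median (point) and quartiles (bar) of the log2 ratio over FGF-2 (y axis) for the 35 proteasome genes, 25 ribosomal protein genes, 7 chaperonin genes, 5 MCM genes and all 12559 units, by group. The proteasome median of -0.15 at 6 d without factor lies nearer 0 than the ribosomal (-0.32), chaperonin (-0.21) and MCM (-1.06) medians.

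Markers of cell types moved in all 4 groups. In either direction, 13.7% of all units passed at 6 d without factor and 3.22% at 6 d with PDGF-AA. At 12 h it was 11.7% without factor and 3.01% with PDGF-AA. Of 5 astrocyte markers, 4 were higher at 6 d without factor, with ratios over the list from -0.073 to 3.22 (Clu, Entpd2, Gja1 and Aldoc), 2 of 5 neuron markers were higher (Mapt and Tubb3), and Nes and Id1 were lower among 5 progenitor markers while Id3 was higher. At 6 d with PDGF-AA 3 of 5 astrocyte markers were higher, 0 of 5 neuron markers passed, and 2 of 5 progenitor markers were lower. At 12 h with PDGF-AA 1 of 5 neuron markers was higher (Uchl1, 0.50), 1 of 5 progenitor markers was lower (Id1, -0.92) and 0 of 5 astrocyte markers passed. At 12 h without factor, among the same lists, Mapt (0.77), Uchl1 (0.38) and Aldoc (1.29) were higher, and Gap43 (-0.52), Slc1a3 (-0.44), Id1 (-0.88) and Vim (-0.81) were lower. The 1 measured oligodendrocyte lineage marker, Pdgfra, had 0.90 at 6 d with PDGF-AA, 0.44 at 12 h with PDGF-AA and 0.97 at 12 h without factor, none past the threshold, and was higher at 6 d without factor (1.51 ± 0.36, adjusted p = 0.00912). The 2 microglia and 2 endothelium markers did not pass in any group, with ratios from -0.27 to 0.20. Ratios do not show whether a marker is at 0. The part of cell composition in the proteasome ratios was not tested.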

How the data were processed

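Each array has 1 deposited log ratio for each spot, read here as log2 although the authors' base is not stated. Per the labels' protocols, 40 µg of total RNA was labelled with 1 of the dyes Cy3 and Cy5 and mixed with the other channel on a mouse cDNA chip, and spots were quantified with QuantArray. Background correction, normalisation and spot filters were steps not given in the sources used here. Of the sample columns, 0 were left out. Units over 1 log2 in size on a group's Cy5 arrays were checked for the same sign on its Cy3 arrays. The share was 78.5% at 6 d with PDGF-AA, 75.3% at 6 d without factor and 89.4% at 12 h without factor. At 12 h with PDGF-AA it was only 58.7% of 104 units. Dye-swapped ratios were taken to run one way already, for which that last group gives little ground. Over all units, pairs of arrays of 1 group but opposite dyes had a median r of only 0.091, against 0.392 for pairs of different groups with the same dye, and the lowest r of any pair was -0.468.

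Arrays were centred on their median. Spots of 1 symbol were averaged per array, and other spots entered as they stood. Units measured on 3 or more arrays per group were kept, 12559 in all. A single limma model (version 3.58.1, R 4.3.3) held all groups, with 1 coefficient each and a dye term, then moderated by empirical Bayes. Tests were two-sided and adjusted by Benjamini-Hochberg over all units, and the fit was checked on simulated data. Spot intensities were not used, so the number of arrays limits the precision.

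Genes given with values were those past the threshold in any comparison, the 3 of largest size in each group over FGF-2, and set roles (catalytic and inducible subunits, activators, inhibitor, chaperones). Within pathway lists they were the 2 of largest size among those past the threshold per comparison. A few further genes were named for their role or their unadjusted p. The 35 genes, the lists of associated genes, shuttles, ubiquitin and E1, E2, cullin ligases, transcriptional control, ribosomal, chaperonin and MCM genes and cell type markers, and the motifs were chosen with earlier results of these data known. Alternatives tried were no dye term, no centring, a common spread for arrays, each spot on its own, named genes only, only the groups compared, the title number as a term or random block, arrays of 1 title number, array weights, and leaving out each array in turn.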

Additional observations from a re-analysis of the deposited data

Results flagged for a closer look

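The alpha subunit gene Psma6 had a log2 ratio of -0.0391 on array 4 of 6 d with PDGF-AA, against -0.096, -0.10 and -0.099 on the other 3 arrays of that group. Array 4 lay far from a close cluster of 3, by Dixon's criterion at 95%, although all 4 values lay below 0 and close to it. It was the only one marked among 80 groups of 4 arrays checked, and chance marks about 1 in 20.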

How the results depend on the processing

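At 6 d without factor the 9 proteasome genes past the threshold became 4 without a dye term, 2 with only that comparison's arrays in the fit (fewer samples), 5 with a title number term and 5 within the commonest title number (without Psmb6, Psmd8, Psme1 and Psmg1 in both), and 4 to 11 over the arrays left out. The 2 at 12 h without factor became 0 without a dye term, 1 with arrays scaled to a common spread, 6 with named genes only (fewer genes tested), 1 with only its own arrays, 0 with the title number as a random block, 8 with array weights (2 of them higher) and 0 to 4 over the arrays left out. The 1 at 6 d with PDGF-AA became 0 without a dye term, with only its own arrays and with array weights. It became 2 with each spot on its own, and 0 to 1 over the arrays left out. A title number term and the commonest title number each leave 1 array for that group, so no count is given for them. The 0 at 12 h with PDGF-AA became 1 with each spot on its own and 7 with array weights (3 of them higher). The 0 for 6 d minus 12 h with PDGF-AA became 1, Psmd13, with each spot on its own, with named genes only and with array weights. Core minus regulatory medians at 6 d with PDGF-AA became 0.128 with the title number as a term, which rests on 1 array of that group. They were 0.026 to 0.120 over the arrays left out, against 0.045. At 12 h with PDGF-AA they became 0.089 with the random block, 0.184 with array weights and 0.011 to 0.119 over the arrays left out, against 0.054. At 6 d without factor they ran from -0.014 to 0.079 over all alternatives. The number in the sample titles has no stated meaning. A term for it and the commonest number alone both take the arrays with other numbers out of their group means. The interaction holds all groups, so a fit on its own groups alone was not run. The other counts stayed within 1.5 times, and no sign of a called value reversed. The causes of these changes were not tested, also where fewer samples or genes are named. Psmg3 passed in 26 of 26 alternatives at 6 d without factor and against 12 h. No paired analysis was possible because replicate numbers were given in deposition order and pair no arrays; the title number is not such a number.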
